A study of Homo sapiens with 10 samples.

Results

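The genes described here encode the enzymes and transporters that carry glucose into the cell and break it down, and they were taken by symbol from a list of 35 protein-coding genes put together by function. All 35 were found among the 60603 rows (19975 protein-coding) of each deposited comparison table, and all 35 had an adjusted p-value in each of the 3 comparisons. The RNA came from NB4, an established line of acute promyelocytic leukemia cells, and was sequenced in 2 experiments with 2 replicates per group. In the first, cells infected with the empty pLKO.1 puro lentivirus (EV) or with the same vector carrying 1 of 2 short hairpin RNAs against GSE1, shA1 or shB2, were collected after 48 h. In the second, cells received DMSO or 2 µM of the LSD1 inhibitor MC2580 for 24 h, and the titles of the treated libraries give the compound as MC280. GSE1 is a subunit of the complexes in which the histone demethylase LSD1 (KDM1A) works, and the comparisons ask which transcripts change when either protein is targeted. Every group is the same cell line, both hairpins were compared with the same EV libraries, and no hairpin without a target was among the groups.

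Glucose enters through GLUT transporters, is trapped as glucose 6-phosphate by hexokinases, and is committed to glycolysis at the phosphofructokinase step. The lower part of the pathway makes ATP and pyruvate, which is either reduced to lactate and exported or passed to the pyruvate dehydrogenase complex of mitochondria. A side branch, the pentose phosphate pathway, supplies NADPH and ribose. Many steps are served by paralogs that differ between tissues, and many of these genes are classical targets of HIF1 and MYC. Myeloid leukemia cells are known to rely heavily on glycolysis.

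The deposited tables give no value per library, so the groups cannot be checked for overlap, and the precision of each value is its standard error (SE). They give the base mean, which averages the size-factor-normalised counts of all libraries in that experiment, with a log2 fold change, its SE and a p-value from the DESeq2 Wald test. A group level below is the normalised count implied by the base mean and the fold changes and is a description only. A gene was said to have risen or fallen when its adjusted p-value was under 0.01. The base means of the 35 genes ran from 33.3 (HK3) to 167811 (GAPDH), with a median of 4832, in the knockdown experiment, and from 14.8 to 191144 with MC2580. Their sum was 1.90% of all base means in the knockdown experiment and 2.19% in the other. By implied level they took 2.02% of the total in EV, 1.91% in shA1, 1.77% in shB2, 2.14% in DMSO and 2.25% in MC2580. In bulk RNA, fewer cells of a kind and less RNA per cell cannot be told apart.

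GSE1 mRNA was at 58.7% of EV with shA1 (log2 fold change -0.77 ± 0.13, SE) and at 58.0% with shB2 (-0.79 ± 0.14). It was at 105% of DMSO with MC2580. At the protein level, by western blot at a later time, the paper reported that shB2 depleted GSE1 more effectively than shA1. Of 8 promyelocyte markers 7 were well expressed, while ELANE had a base mean of 1.10. Their log2 fold changes ran from -1.74 (CTSG) to 0.26 (CD33) with shA1 and from -1.57 (PRTN3) to 0.43 with shB2. Of 18 markers of other cell types 12 had a base mean under 50, and the highest was KRT18 at 906. The part of these shifts in the results below was not tested.

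In shA1 cells 7 of the 35 genes rose (20.0%, against 11.3% of all 16673 genes tested) and 6 fell (17.1%, against 7.99%). In shB2 cells 8 rose (22.9%, against 14.2% of 17913 genes) and 12 fell (34.3%, against 12.1%). Well-measured genes are called more often: among the 8493 genes at a base mean of 500 or more, a limit chosen after seeing the values, shA1 raised 16.8% and lowered 14.3%, and shB2 raised 22.4% and lowered 21.3%. Of the 31 members above that limit, 6 rose and 6 fell (19.4% each) with shA1, so the shA1 counts lie near the background. With shB2, 6 of these 31 rose (19.4%, near the background) and 12 fell (38.7%, above it). The list was itself chosen with earlier results of these data known, so these shares describe it and test nothing. A change past 2-fold in either direction was called for 4 members with shA1 (SLC2A3, HK1, HK2 and ENO2, 11.4%, against 5.10% of all genes). With shB2 it was called for 7 (SLC2A1, SLC2A3, HK1, HK3, PGM1, PGK1 and ENO2, 20.0%, against 8.49%). Over the list the median log2 fold change was -0.09 with shA1 and -0.17 with shB2, beside -0.00 and 0.00 for all genes tested. The SE of a member had a median of 0.12 with either hairpin, so changes well under 2-fold could be resolved.

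**Figure D1:**
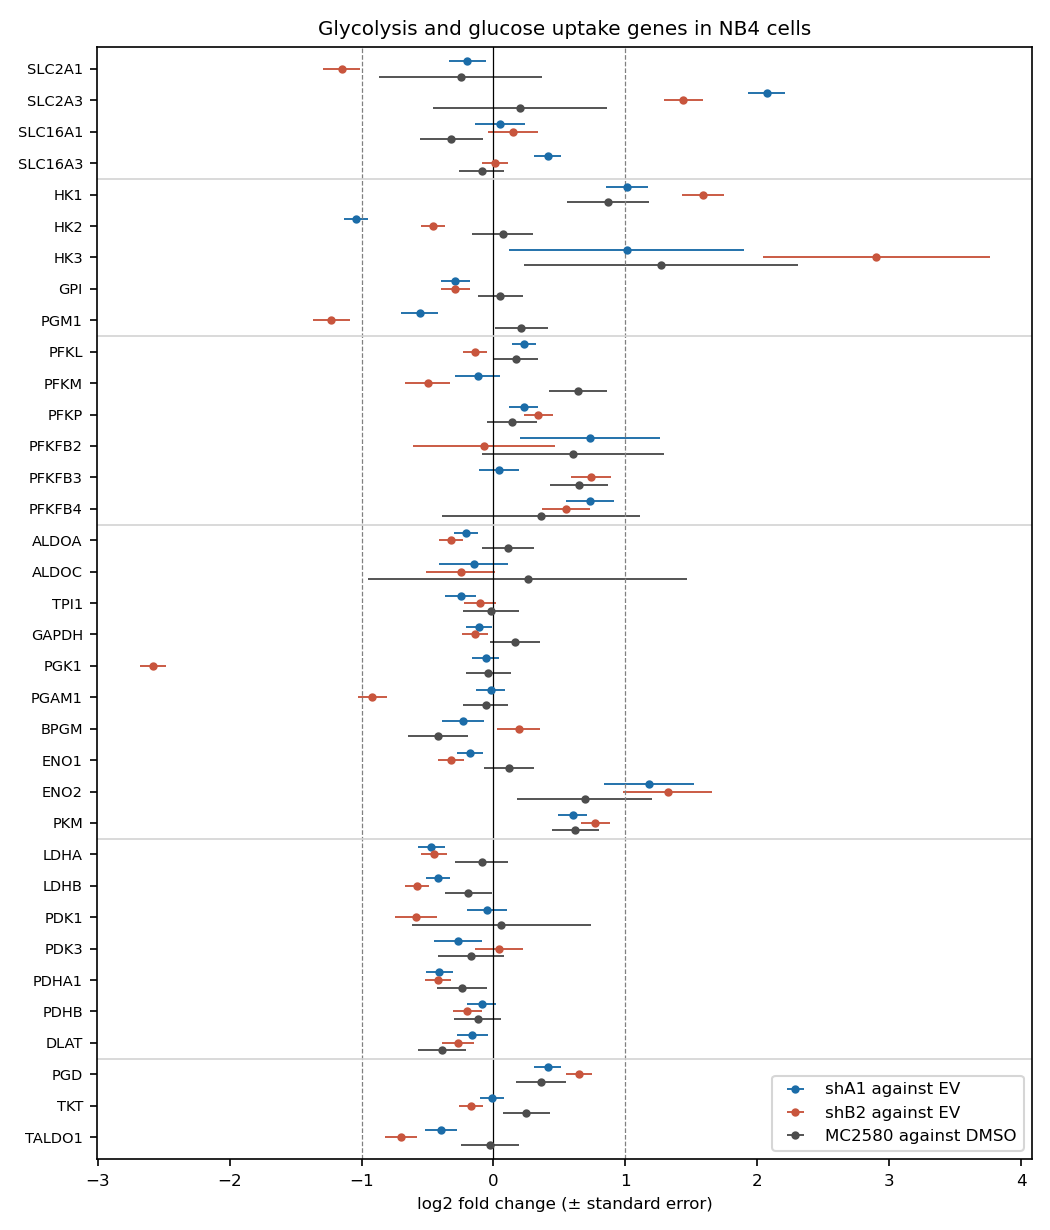
Log2 fold change (x axis, ± SE) of each of the 35 genes (y axis, ordered by role, with grey lines between roles) for shA1 and shB2 against EV and MC2580 against DMSO, with dashed lines at 2-fold. PGK1 stands at -2.58 with shB2 and -0.06 with shA1, SLC2A3 at 2.07 and 1.44, and the MC2580 bars of SLC2A1, SLC2A3, PFKFB4, ALDOC and PDK1 are wide.

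The genes that rose with shA1 were SLC2A3, SLC16A3, HK1, PFKFB4, ENO2, PKM and PGD, and those that fell were HK2, PGM1, LDHA, LDHB, PDHA1 and TALDO1. With shB2 the genes that rose were SLC2A3, HK1, HK3, PFKFB3, PFKFB4, ENO2, PKM and PGD. Those that fell with shB2 were SLC2A1, HK2, PGM1, ALDOA, PGK1, PGAM1, ENO1, LDHA, LDHB, PDK1, PDHA1 and TALDO1. The comparisons share the EV libraries, so calls of a gene in both are not independent, and the overlap is not read as a result.

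At the first step of the pathway the 2 glucose transporters of the list moved apart. SLC2A3 (GLUT3, a high-affinity transporter, chr12:7919230-8019007, minus strand, hg38) had implied levels of 1313 in EV, 5518 in shA1 and 3568 in shB2. Its log2 fold changes were 2.07 ± 0.14 (adjusted p = 2.08e-43, DESeq2 Wald test) and 1.44 ± 0.15 (2.19e-21), so both hairpins stood above EV. SLC2A1 (GLUT1, the common basal transporter, chr1:42925353-42958893, minus strand) was at 3727 in EV, 3253 in shA1 and 1683 in shB2. It fell with shB2, by 1.15 ± 0.14 (adjusted p = 1.93e-15, DESeq2), and stood at -0.20 ± 0.14 with shA1 (0.325). Per kilobase of canonical transcript, SLC2A3 made up 23.8% of the pair in EV, 60.0% in shA1 and 65.2% in shB2, a change in the log2 ratio of 2.27 ± 0.20 and 2.59 ± 0.20. Of the monocarboxylate transporters, which carry lactate, SLC16A3 (MCT4) rose with shA1 (0.41 ± 0.10, adjusted p = 6.99e-04, DESeq2) and was at 0.01 ± 0.10 with shB2. SLC16A1 (MCT1) was at 0.05 ± 0.19 and 0.15 ± 0.19. A processed copy, SLC2A3P1, had a base mean of 314 and stood at 0.60 ± 0.26 with shA1 and -0.00 ± 0.26 with shB2. The 3 SLC2A3 copies summed to 9.08% of SLC2A3, so reads can be split between the gene and its copies.

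The hexokinases, which phosphorylate glucose, also moved apart. HK1 (chr10:69269984-69401884, plus strand), the widely expressed form, was at 628 in EV, 1261 in shA1 and 1895 in shB2, a rise of 1.01 ± 0.16 (adjusted p = 2.31e-08, DESeq2) and 1.59 ± 0.16 (1.28e-20). HK2 (chr2:74834127-74893359, plus strand), the inducible form that prevails in many tumours, was at 11578, 5612 and 8413, a fall of 1.04 ± 0.09 with shA1 (adjusted p = 2.90e-29, DESeq2) and 0.46 ± 0.09 with shB2 (2.07e-06). HK2 was thus lowest in shA1, and HK1 highest in shB2. For HK1 the difference between hairpins missed the threshold (0.59 ± 0.23, adjusted p = 0.0901, Wald test of the difference). Per kilobase, HK1 was 7.81% of the HK1 and HK2 pair in EV and 26.0% with each hairpin, a log2 ratio change of 2.05 ± 0.19 in both. HK3 (chr5:176880869-176899346, minus strand), a hexokinase of mature myeloid cells, was low: implied levels were 9.51, 19.1 and 71.2. Its rise was called with shB2 (2.90 ± 0.86, adjusted p = 0.00319, DESeq2), while with shA1 the value was 1.01 ± 0.89. PGM1, which links glucose 6-phosphate to glycogen (chr1:63593411-63660245, plus strand), was at 2905 in EV, 1968 in shA1 and 1236 in shB2. It fell by 0.56 with shA1 (adjusted p = 3.53e-04) and by 1.23 ± 0.14 with shB2 (1.69e-17, both DESeq2). GPI, the isomerase that follows the hexokinases, was at -0.29 ± 0.11 with each hairpin and missed the threshold.

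**Figure D2:**
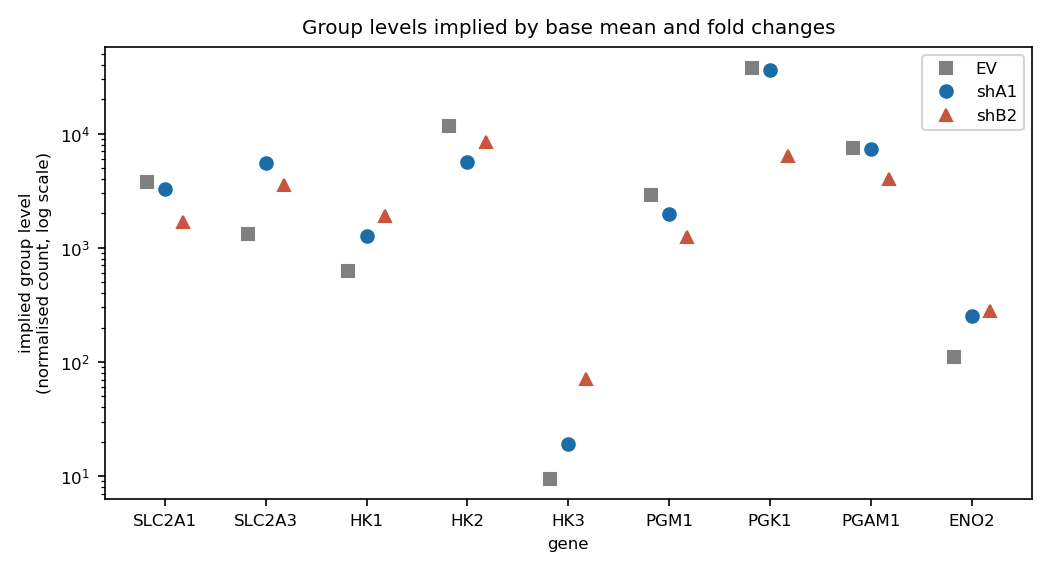
Implied group level (y axis, normalised count, log scale) of the 9 genes (x axis) past 2-fold with a hairpin or different between the hairpins; squares are EV, circles shA1 and triangles shB2, with no error bar because the tables hold none for a level. SLC2A3, HK1, HK3 and ENO2 lie above EV in both, while PGK1 falls from 37865 in EV to 6344 in shB2 alone.

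At the phosphofructokinase step no gene passed 2-fold with either hairpin. The 3 subunits of the enzyme itself, PFKL, PFKM and PFKP, were not called with either hairpin, with log2 fold changes between -0.50 (PFKM, shB2) and 0.34 (PFKP, shB2). With shB2, PFKM and PFKP lay just outside the threshold (adjusted p = 0.0111 and 0.0104, DESeq2) and passed it when only protein-coding genes above a base mean of 50 were adjusted over (0.00753 and 0.00708). Among the bifunctional enzymes, which set the level of its activator fructose 2,6-bisphosphate, PFKFB4 rose with both (0.73 ± 0.18 and 0.55 ± 0.18), although the shB2 call was lost when all genes with a p-value were adjusted over (adjusted p = 0.0181, DESeq2). PFKFB3 rose with shB2 (0.74 ± 0.15, adjusted p = 1.07e-05, DESeq2) and stood at 0.04 ± 0.15 with shA1. PFKFB2, with a base mean of 71.6, was at 0.73 ± 0.53 and -0.07 ± 0.54.

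In lower glycolysis ENO2 and PKM rose with each hairpin. Of the 10 genes none was called lower with shA1 and 4 with shB2: PGK1, PGAM1, ALDOA and ENO1. Over all genes tested 7.99% were called lower with shA1 and 12.1% with shB2. Among those at a base mean of 500 or more these shares were 14.3% and 21.3%. ALDOA, an aldolase, was at -0.21 ± 0.09 with shA1 and -0.32 ± 0.09 with shB2. ENO1, the main enolase, was at -0.18 ± 0.10 and -0.32 ± 0.10. For neither did the difference between hairpins pass the test (-0.11 and -0.14, adjusted p = 0.810 and 0.739, Wald test of the difference), whereas PGK1 and PGAM1 differed. PGK1, which makes the first ATP of the pathway (chrX:77910739-78129295, plus strand), was at 37865 in EV, 36221 in shA1 and 6344 in shB2. With shB2 it fell by 2.58 ± 0.10 on the log2 scale (adjusted p = 8.00e-144, DESeq2), which left 16.8% of EV, and with shA1 the value was -0.06 ± 0.10. PGAM1, the mutase that follows it (chr10:97426191-97433444, plus strand), was at 7516, 7390 and 3965, a fall of 0.92 ± 0.11 with shB2 (adjusted p = 4.88e-16, DESeq2) beside -0.02 ± 0.11 with shA1. In both genes shA1 stayed near EV and shB2 stood apart. ENO2, the neuronal enolase (chr12:6913745-6923698, plus strand), was at 111, 253 and 278, a rise of 1.18 ± 0.34 (adjusted p = 0.00335) and 1.32 ± 0.34 (6.11e-04, both DESeq2), yet per kilobase it stayed under 1% of the ENO1 and ENO2 pair (0.0564%, 0.145% and 0.175%). PKM, the pyruvate kinase of most cells other than liver and red cells, rose by 0.60 ± 0.11 and 0.77 ± 0.11 from 41709 to 63073 and 71320. ALDOC, TPI1, GAPDH and BPGM were not called, and GAPDH, often used as a reference gene, was at -0.11 ± 0.10 and -0.14 ± 0.10.

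Of the 7 genes of pyruvate and lactate, none rose, 3 fell with shA1 and 4 with shB2. Over all genes tested 7.99% and 12.1% fell, and 14.3% and 21.3% of those at a base mean of 500 or more. LDHA and LDHB, the subunits of lactate dehydrogenase, fell together: LDHA by 0.47 and 0.45, LDHB by 0.42 and 0.58. LDHB made up 79.9% of the pair per kilobase in EV, 80.5% in shA1 and 78.5% in shB2, so the subunit ratio moved by less than its error (log2 ratio changes 0.05 ± 0.14 and -0.12 ± 0.14). LDHAP4, a copy of LDHA with a base mean of 1083, gave -0.44 ± 0.16 and -0.48 ± 0.16, and reads of the 2 cannot be told apart with certainty. PDHA1, the catalytic subunit of pyruvate dehydrogenase, fell by 0.41 and 0.42, and PDK1, a kinase that inhibits this enzyme, fell with shB2 (-0.59 ± 0.16, adjusted p = 7.41e-04, DESeq2) and was at -0.05 ± 0.15 with shA1. PDHB, DLAT and PDK3 were not called.

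The 3 genes of the pentose phosphate pathway went separate ways with both hairpins. PGD, which makes NADPH in the oxidative branch, rose by 0.41 ± 0.10 and 0.65 ± 0.10. TALDO1, of the branch that recycles sugars, fell by 0.40 ± 0.12 and 0.70 ± 0.12, the shA1 call being lost under the same wider adjustment (adjusted p = 0.0121, DESeq2). TKT, its partner, was at -0.01 ± 0.09 and -0.17 ± 0.09.

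Whether the hairpins differed was tested on the difference of their log2 fold changes, with an SE that is an upper bound because EV is shared. Of the 35 genes 1 was higher with shB2 than with shA1 (2.82% of 16673 genes were) and 4 were lower (4.04% were). Among genes at 500 or more, the shares were 4.99% and 6.99% of all genes, against 3.23% and 12.9% of the 31 members. The lower genes were PGK1 (-2.51 ± 0.14, adjusted p = 1.07e-67, Wald test with Benjamini-Hochberg adjustment), SLC2A1 (-0.95 ± 0.19, 3.23e-05), PGAM1 (-0.90 ± 0.15, 2.48e-07) and PGM1 (-0.67 ± 0.19, 0.00834). The higher gene was HK2 (0.58 ± 0.13, adjusted p = 1.12e-04, same test). With shB2, PGK1 was at 17.5% of its shA1 level and SLC2A1 at 51.7%. For SLC2A3 (-0.63 ± 0.21) and PFKFB3 (0.71 ± 0.22) the difference missed the threshold, and their 95% intervals, -1.03 to -0.23 and 0.28 to 1.13, leave its size uncertain. Both passed with an SE rebuilt to allow for the shared EV (adjusted p = 1.34e-04 and 5.48e-05, same test). That SE comes from variances modelled from the deposited SEs and implied levels, not measured in each group. For LDHA the difference was 0.02 with an interval of -0.26 to 0.30. PGM1 missed the threshold when all genes with a p-value were adjusted over (adjusted p = 0.0167, same test). With the rebuilt SE, 3 genes in all were higher (HK2, HK1 and PFKFB3) and 8 lower (PGK1, SLC2A1, PGAM1, PGM1, SLC2A3, SLC16A3, PFKL and PDK1).

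**Figure D3:**
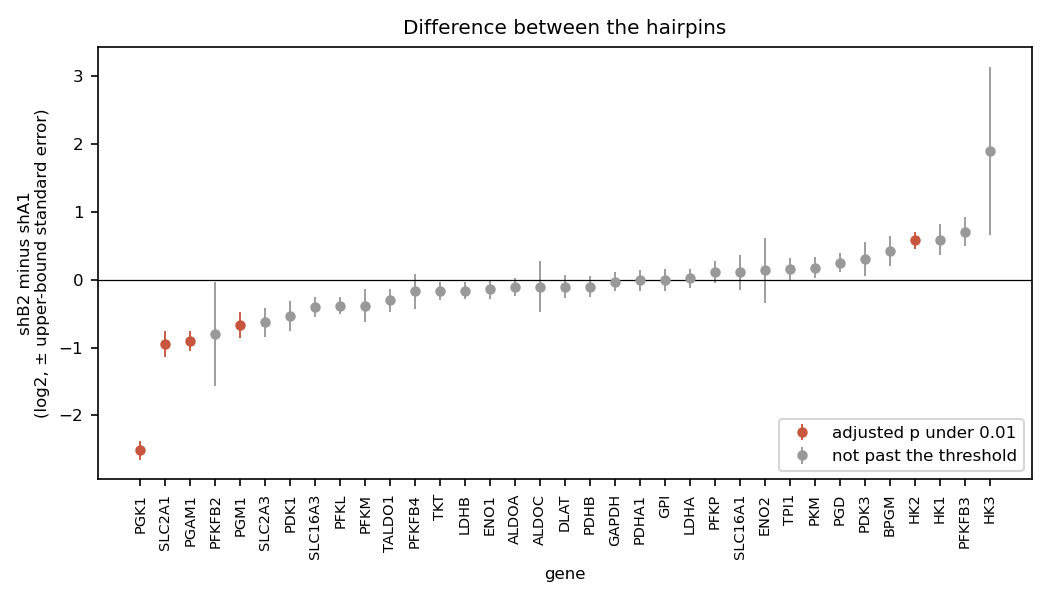
Log2 fold change with shB2 minus that with shA1 (y axis, ± upper-bound SE) for the 35 genes in order of the difference (x axis); coloured points had an adjusted p under 0.01. PGK1 lies alone at -2.51, and HK3, at 1.90 ± 1.24, has the widest bar.

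The hairpins share a target gene but differ in sequence and, per the paper, in how far they depleted its protein. Which of these goes with the differences between hairpins was not tested. Stretches that match the shB2 guide are shown for GSE1 and for 4 members that hold one, whether or not they differed between the hairpins. TTCACTA pairs with bases 5 to 11 of the antisense strand of shB2, counted from its 5′ end. These positions had been picked from a scan of the fold changes of these data, so the counts are a description and support nothing. The capitals mark TTCACTA in 29 bases of hg38, plus strand. The first sequence is the intended site in the coding part of the canonical GSE1 transcript, and the others lie in the 3′ UTR of the canonical transcript of the members. PGK1 and PGM1 were lower with shB2 than with shA1, and HK2 was higher (0.58 ± 0.13). PFKFB2 did not pass the test of the difference (-0.80 ± 0.76). PFKFB2 holds 2 copies, of which the first is shown, and PDK1, with 3 copies, is not shown.
GSE1, chr16:85666172-85666200: tctgagcatgcTTCACTAtatccggggcg
PGK1, chrX:78126160-78126188: tttgtcactgtTTCACTActcagcatgga
PGM1, chr1:63659778-63659806: gatttgactttTTCACTAaccagttgacg
HK2, chr2:74892937-74892965: gtagattttagTTCACTAaagggtgccca
PFKFB2, chr1:207072707-207072735: tccctggtgtcTTCACTAatgtcctcatg

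Of the 35 genes 5 held TTCACTA in the canonical 3′ UTR (14.3%, against 10.4% of 13217 protein-coding genes tested): these 4 and PDK1. With shB2, 4 of the 5 fell, against 8 of the 30 without it. Over all protein-coding genes 20.2% fell with it and 14.2% without. The length of the 3′ UTR, from 570 bases (PGM1) to 12700 (PDK1) among the 5, was not allowed for. Of the 4 members that fell, HK2 and PGM1 also fell with shA1 (-1.04 and -0.56), HK2 by more than with shB2 (-0.46). PGK1 and PDK1 were not called with shA1. SLC2A1 and PGAM1 held none. HK2 held one, and PFKFB2 was at -0.07 ± 0.54 with shB2. ACTATAT, which pairs with bases 2 to 8 of that strand, stood in PGK1, LDHA, PDK1 and HK2 (11.4%, against 10.8%). All 4 fell, but over all genes 13.4% fell with it and 15.0% without, and LDHA and HK2 also fell with shA1 (-0.47 and -1.04). The corresponding shA1 heptamers, TGACGTC and CGTCAAT, were in the canonical 3′ UTR of no member. Both were rare, in 1.97% and 0.993% of the 12792 protein-coding genes tested with shA1, so their absence from 35 genes lies near the background. Whether shB2 acts on any of these transcripts directly was not tested.

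MC2580 called none of the 35 genes in either direction at an adjusted p under 0.01, with 0.733% of 18554 genes called higher, 0.0269% called lower and 0.604% past 2-fold (DESeq2 Wald test). At an unadjusted p under 0.05 there were 4 positive genes (11.4%, against 4.20% of all genes) and 1 negative (2.86%, against 1.57%). The positive ones were HK1 (0.87 ± 0.31), PFKM (0.64 ± 0.22), PFKFB3 (0.65 ± 0.22) and PKM (0.62 ± 0.18), and the negative one was DLAT (-0.39 ± 0.18). The lowest adjusted p was that of PKM (0.0543, DESeq2), with implied levels of 36799 in DMSO and 56462 in MC2580. The median of the list was 0.11, beside -0.00 for all genes, with a median SE of 0.20. For 24 of the 35 genes the 95% interval lay within 2-fold in both directions, and PGK1 was at -0.04 ± 0.17 and PGAM1 at -0.06 ± 0.17. For the other 11 a 2-fold change was not excluded at this precision, among them SLC2A1 (-1.45 to 0.96), PDK1 (-1.27 to 1.40) and HK3 (-0.77 to 3.30).

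Some of these wide intervals belonged to genes well above the lowest base means, such as ALDOC at 677 and SLC2A1 at 4544 with MC2580. Set against genes with a base mean within 1.5-fold, a comparison chosen after seeing the values, the SE in the MC2580 experiment was over 2 times the median for 5 of the 35 genes: ALDOC (4.93 times), PFKFB4 (3.30), PDK1 (3.27), SLC2A3 (3.26) and SLC2A1 (3.21). Of the 12527 genes whose base mean was 50 or more this held for 0.567%. In the knockdown experiment it held for 0 of the 35 genes with either hairpin, near the background of 1.42% (shA1) and 1.43% (shB2) of 12463 genes. The same 5 genes had ratios of 1.26 or less with shA1. Among HIF1 targets outside glucose metabolism 4 of 16 showed it with MC2580: BNIP3 (4.90), P4HA1 (4.08), KDM3A (3.04) and AK4 (2.91). Which library or group carried this spread cannot be read from these tables, and its source was not tested.

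**Figure D4:**
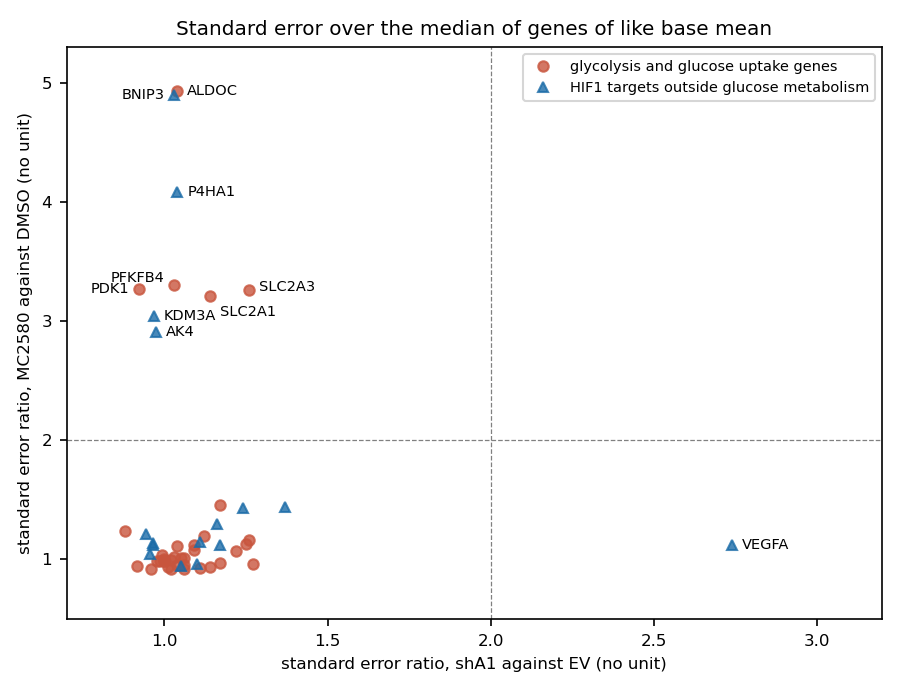
SE of each gene divided by the median SE of genes of like base mean, with shA1 on the x axis and MC2580 on the y axis (no unit), circles for the glycolysis and glucose uptake genes, triangles for HIF1 targets outside glucose metabolism and dashed lines at 2. ALDOC, PFKFB4, PDK1, SLC2A3 and SLC2A1 lie between 3.21 and 4.93 on the y axis and at 1.26 or below on the x axis.

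Genes that act next to the list moved in part. Of 13 further transporters and partners, 10 could be tested, and 4 rose with each hairpin and none fell. Beside this and the later lists, 11.3% of all genes tested rose and 7.99% fell with shA1. With shB2 these shares were 14.2% and 12.1%. SLC2A6, a GLUT of leukocytes, rose by 1.89 ± 0.37 and 1.73 ± 0.37, and SLC16A7 (MCT2) by 1.11 ± 0.35 with shA1. SLC2A5, a fructose transporter, rose by 0.88 ± 0.19 with shB2. SLC2A12 was called with both, but at a base mean of 29.4 its fold change rests on few counts. In the pentose phosphate list, with shA1 H6PD rose by 0.63 ± 0.12 and RPIA fell by 0.85 ± 0.13.

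Of 10 tested genes of pyruvate entry, 1 rose and 1 fell with shA1, the latter being MPC1, a subunit of the mitochondrial pyruvate carrier, which also fell with shB2 (-0.73 ± 0.13 and -0.53 ± 0.13). With shB2, 2 rose and 3 fell, with the largest values for PDPR (0.58 ± 0.11, and 0.41 ± 0.11 with shA1), PC (-0.57 ± 0.17) and PDP1 (0.55 ± 0.16). Of 10 glycogen genes 1 fell with shA1 (PYGL, the liver-type glycogen phosphorylase, -0.38 ± 0.09, and -0.59 ± 0.09 with shB2), and with shB2 2 rose and 3 fell, led by PYGB, the brain-type phosphorylase (1.03 ± 0.10), PHKB (-0.86 ± 0.12) and GBE1 (-0.82 ± 0.14). Among other glucose enzymes 1 of 10 rose with shA1 (PGM2L1, 1.03 ± 0.28). With shB2, 2 of 12 rose and 2 fell, among them FBP1, an enzyme of gluconeogenesis (1.59 ± 0.42), GPD1L (-1.08 ± 0.17) and PCK2 (0.70 ± 0.16). Of these neighbouring genes, the difference between hairpins passed the test for FBP1 (2.25), GPD1L (-0.98), PYGB (0.79) and PHKB (-0.71), and a call of another gene with a single hairpin does not show that the hairpins differ there.

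Of 13 regulators of glucose use tested, 8 were not called with shA1 and 8 were not with shB2, and the list's median log2 fold change was -0.00 and -0.02. Among those called, MYC fell by 0.85 ± 0.12 with shA1 and 1.44 ± 0.12 with shB2, and the difference between hairpins passed the threshold (-0.59 ± 0.17, adjusted p = 0.00717, Wald test of the difference). HIF1A rose by 0.78 ± 0.12 and 1.25 ± 0.12, and its partner ARNT by 0.53 ± 0.13 and 0.62 ± 0.13. EPAS1 (HIF2A), at a base mean of 44.8, rose with shA1 (2.40 ± 0.73). TXNIP, an inhibitor of glucose uptake, rose with shA1 (0.58 ± 0.14) and fell with shB2 (-0.51 ± 0.14), a difference of -1.09 ± 0.20. In all 4 rose and 1 fell with shA1, and 2 rose and 3 fell with shB2. Of 16 HIF1 targets outside glucose metabolism, 2 rose and 1 fell with shA1, and 3 rose and 3 fell with shB2. Over all genes tested 11.3% rose and 7.99% fell with shA1, and 14.2% rose and 12.1% fell with shB2. With shA1 and shB2, DDIT4 rose by 1.27 ± 0.17 and 1.74 ± 0.17, NDRG1 rose by 1.26 ± 0.16 and 0.65 ± 0.16, and FAM162A fell by 0.77 ± 0.13 and 0.75 ± 0.13. HILPDA was at -0.45 ± 0.20 with shA1 and fell by 1.03 ± 0.20 with shB2, and BNIP3L was at 0.19 ± 0.20 and rose by 0.95 ± 0.20, with neither difference between hairpins past the threshold. With MC2580 no gene of the 7 neighbouring lists passed the threshold (DESeq2), with MYC at -0.00 ± 0.17 and HIF1A at -0.44 ± 0.27.

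RefSeq promoters (GRCh38.p14, from 250 bases before to 50 after the start) were at hand for 32 of the 35 genes. The core letters of the HIF response element, ACGTG or GCGTG, searched on both strands, were in 21 of them (65.6%), against 48.4% of 27305 promoters. ACGTG alone was in 13 (40.6%, against 21.6%), GCGTG in 16 (against 36.3% of all promoters) and CACGTG, the E-box that MYC and its partners bind, which contains ACGTG, in 4 (12.5%, against 7.43%). Among the genes with ACGTG were PGK1 and HK2, which fell with shB2, ENO2 and PGD, which rose, and GAPDH, which was not called. The 27305 promoters were not limited to protein-coding or expressed genes, and base composition was not allowed for. A match is only a run of letters, and binding was not examined.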

How the data were processed

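mRNA-seq was made from total RNA of 10 NB4 libraries (TruSeq RNA v2). Per the labels and methods, reads were mapped to hg38 with STAR (2.7 in the submitters' processing notes), genes quantified with RSEM and groups compared in DESeq2, whose versions are not given in the sources used here. The deposited tables were fitted by the authors and hold only comparison columns. Base means, in normalised counts, are the deposited signal; the deposited log2 values are fold changes and their SE; the deposited score values are Wald statistics; and the deposited p-values are raw and Benjamini-Hochberg adjusted. Because the wanted quantities exist only there, these columns were used, and no count model was fitted and no library depth is given. The precision of a value is its SE.

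The columns 3-1 and 4-2 were taken as shA1 and shB2 after a match with the study's gene lists. The members and lists were chosen with earlier results of these data known. Named genes are all members, those past an adjusted p of 0.01 and a log2 fold change of 1, or different between hairpins, in full, and at most 3 genes per neighbouring list and comparison. The EV level was 3 times the base mean over the sum of 1 and both fold changes. The difference between hairpins was a Wald test adjusted over 16673 genes, tested on simulated data. Ratio changes of paralogs carry the root of both squared SEs, which is approximate. Replicates are biological per the paper's figure legends. The p-values set each fold change against its fitted SE, with 2 libraries per group, and are not a direct measure of the spread between replicates. 3′ UTRs came from GENCODE 44, and promoters from RefSeq. Python 3.11.15, pandas 2.3.3 and scipy 1.17.1 were used. One gene of a neighbouring list is not reported here.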

Additional observations from a re-analysis of the deposited data

Results flagged for a closer look

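In 5 genes the effects of the hairpins, each against EV, differed by the test of the difference itself (Wald test, Benjamini-Hochberg adjustment over all genes): PGK1 by -2.51, SLC2A1 by -0.95, PGAM1 by -0.90, PGM1 by -0.67 and HK2 by 0.58 (log2, shB2 minus shA1). PGM1 and HK2 fell with both hairpins and differed in size, while PGK1, PGAM1 and SLC2A1 were called with shB2 and not with shA1. With 2 libraries per group and no value per library, whether 1 library carried a difference was not tested.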

How the results depend on the processing

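Of 49 recalculated counts of members called, 44 stayed within 1.5 times the count reported. These 44 include the MC2580 counts, which were 0 in every setting. With a log2 fold change over 0.5 in place of 1, the genes past both thresholds went from 4 to 7 with shA1 and from 7 to 15 with shB2. For the difference between hairpins, the genes higher with shB2 went from 1 to 2 at an adjusted p under 0.05. With the SE rebuilt from modelled variances they went to 3, beside 8 in place of 4 lower. That SE is smaller by construction (median 0.707 times the upper bound). Centring on the median gene turned TPI1 with MC2580 from -0.02 to 0.00 and the GPI difference from 0.00 to -0.00, neither called. With no filter on low counts, so more genes adjusted over, 3 calls were lost: TALDO1 with shA1 (adjusted p = 0.0121), PFKFB4 with shB2 (0.0181) and the PGM1 difference (0.0167, all from the DESeq2 or difference Wald test). Counting any annotated 3′ UTR, 1 member held the shA1 heptamer TGACGTC in place of 0 (2.86%, against 3.97% of all protein-coding genes tested). The same setting added PDK3 (0.04 ± 0.18 with shB2, not called) to the holders of both shB2 heptamers. TTCACTA was then in 6 members in place of 5 (17.1%, against 14.2%), of which 4 fell with shB2. ACTATAT was in 5 in place of 4 (14.3%, against 14.3%), of which 4 fell. No paired analysis was possible because the tables hold no value per library, and for the same reason no replicate was left out and no other count model was run.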

Other observations

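PGK1P2, a copy of PGK1 at a base mean of 17.6, had log2 fold changes of -0.85 ± 0.90 with shA1 and -4.03 ± 1.12 with shB2. For VEGFA, a HIF1 target, the SE was 2.74 (shA1) and 2.73 (shB2) times the median of genes of like base mean. In the knockdown experiment 1.42% (shA1) and 1.43% (shB2) of genes at a base mean of 50 or more passed 2 times. Of the 35 glycolysis and glucose uptake genes 0 did.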
